A study of Homo sapiens with 6 samples.

Results

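231BrM-2a is a derivative of the human breast cancer line MDA-MB-231 that was selected for growth in the brain, and the comparison described here sets its sorted cells against the sorted cells of the parental line. It uses the 2 arrays titled with each line, 4 of the 6 arrays of the series, and every transcript cluster with a gene symbol, 21214 of the 33297 clusters on the array. MDA-MB-231 is a triple-negative line of mesenchymal character. The labels name no drug and no genetic change in either line. In both, cells grown in serum-containing medium were separated with magnetic beads, keeping those without CD24 and with CD44 and ESA, the product of EPCAM, a surface pattern used to enrich breast cancer stem cells. The remaining 2 arrays came from 231BoM-1833, a bone-selected derivative sorted the same way, and serve here for the estimate of spread and as levels set beside those of 231BrM-2a. Only 1 brain-selected line was studied, so what goes with brain selection and what goes with the history of this 1 line cannot be told apart. Replicates are titled biological, with no word on cultures or sorts, so the p-values reflect only the scatter among these arrays, part of which may be technical.

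Cancer cells that reach the brain meet tight endothelium, a basement membrane made of laminins and type IV collagen, and a tissue of neurons and glia. Work on brain metastasis has dealt with the proteases that open this barrier, with the adhesion proteins that hold cells to capillaries, with plasmin and the serpins that block it, and with interferon signalling between tumour cells and astrocytes. Interferons act through receptors and the STAT and IRF factors on a large set of antiviral effector genes, many of which carry an interferon-stimulated response element in their promoter.

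The values are log2 expression values after RMA, so 1 unit is a 2-fold difference, and they compare the level of 1 gene between arrays. Array medians lay between 6.58 and 6.64. Replicate arrays correlated at r = 0.9958 for MDA-MB-231 and 0.9959 for 231BrM-2a across clusters, which are not independent replicates, and arrays of these 2 lines with each other at r = 0.9755 to 0.9797. The sort markers were not called between the lines. CD44 read 11.87 and 11.86 in MDA-MB-231 against 11.45 and 11.46 in 231BrM-2a (difference -0.41 ± 0.13, adjusted p = 0.055). It passed in 7 of the alternatives, among them an alternative added after the data were seen. The adjusted p was 0.0184 when only the 4 arrays of both lines were fitted. Leaving out either 231BoM-1833 array repeats that fit, so the 7 are not all separate. EPCAM read 8.13 and 7.93 against 8.15 and 8.23, and CD24 6.20 and 6.04 against 5.91 and 5.91. Of 18 leukocyte markers, 0 were called higher and 3 lower, with the pan-leukocyte gene PTPRC at 3.86 and 3.60 in MDA-MB-231 against 3.78 and 3.65 in 231BrM-2a. Of 14 neuron and glia markers, RBFOX3 was called higher and MBP lower, the latter lost without 231BrM-2a replicate 1 (adjusted p = 0.0748) or MDA-MB-231 replicate 2 (0.0705), with the list's mean log2 value at 6.02 and 6.12 in MDA-MB-231 and 5.95 and 6.04 in 231BrM-2a.

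Of the 21214 clusters, limma called 4040 (19.0%) at an adjusted p under 0.05, of which 2217 (10.5%) were higher and 1823 (8.59%) lower in 231BrM-2a. A difference of at least 2-fold separated 413 clusters (1.95%) that were higher and 212 (0.999%) that were lower. With 1 cluster per symbol, 1917 of 18417 genes (10.4%) were called higher and 1578 (8.57%) lower, and these shares are the background against which the counts below are read. The median difference over all genes was -0.051. Calls were rarer among dim genes: of the dimmest 6139 genes by mean level 3.05% were called higher and 3.68% lower, against 15.5% and 13.3% of the brightest 6139. The arrays of the 2 lines did not overlap for 63.7% of all genes, so lack of overlap alone says little. The number of called clusters was 2180 without 231BrM-2a replicate 1, 2016 without 231BrM-2a replicate 2, 2390 without MDA-MB-231 replicate 1 and 1764 without MDA-MB-231 replicate 2. Where a gene is given below with its values, its call held in each of these 4 fits unless it is said to have been lost. List counts below 5 often moved by more than 1.5 times when 1 array was left out, and not every such move is printed.

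**Figure D1:**
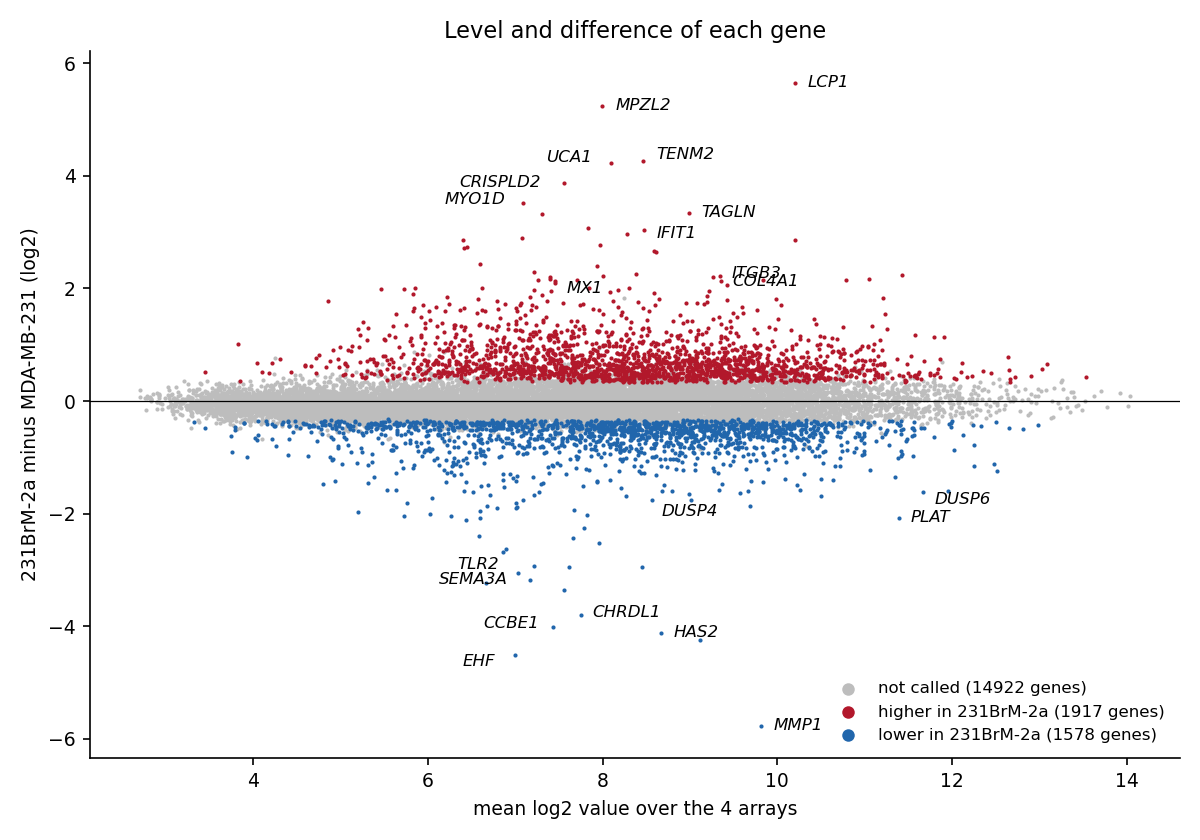
Each point is 1 gene, with the mean log2 value over the 4 arrays of MDA-MB-231 and 231BrM-2a on the x axis and the log2 difference between the lines on the y axis; coloured genes passed limma at an adjusted p under 0.05. The genes higher by the largest amounts, LCP1 and MPZL2, and the gene lower by the largest amount, MMP1, lie more than 5 log2 units from 0, and few dim genes were called.

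Differences are given as the mean of 231BrM-2a minus that of MDA-MB-231 with the standard error of the fit, and adjusted p-values come from limma over all 21214 clusters. Counts for a group of genes are descriptions beside the background of 10.4% higher and 8.57% lower, since the groups were drawn up with earlier results of these data known.

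**Figure D2:**
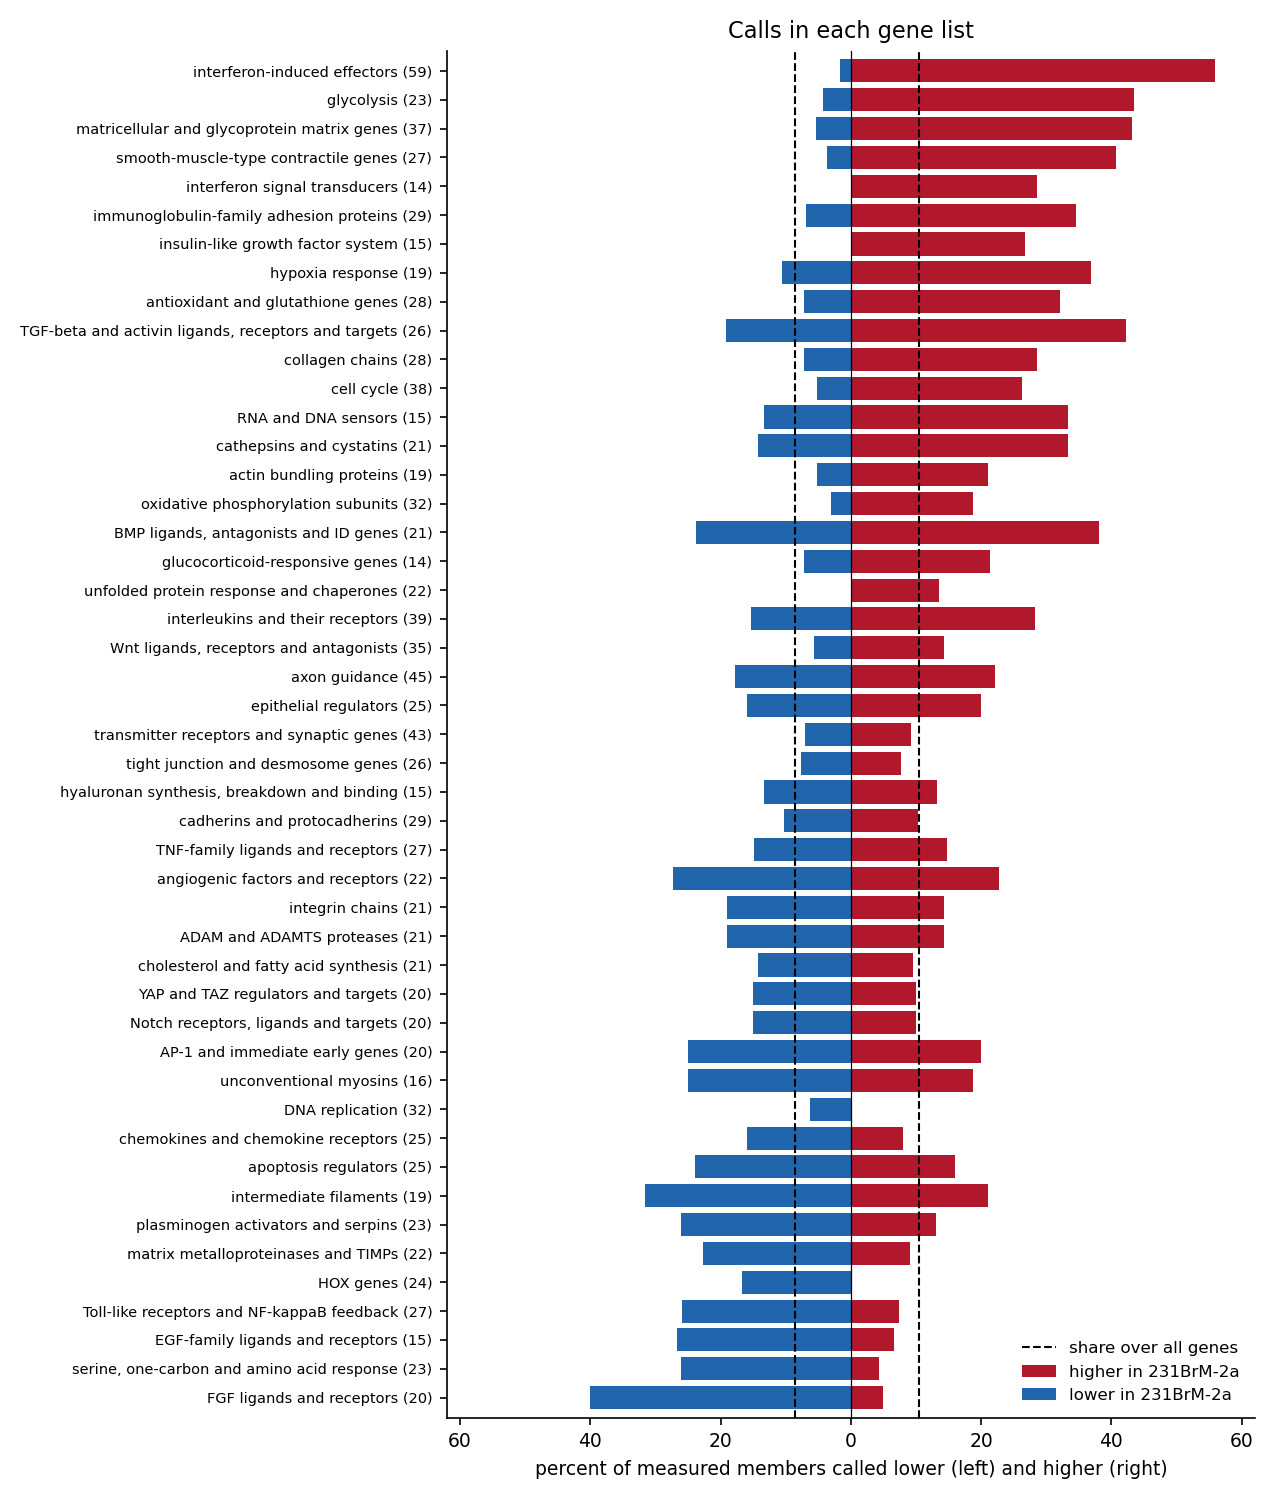
Bars give, for each gene list with at least 14 measured members (number in brackets), cell type markers and genes reported for brain-seeking cells aside, the percent of members called higher in 231BrM-2a to the right and lower to the left; dashed lines mark the 10.4% and 8.57% over all genes. Interferon-induced effectors had the highest share called higher among the lists drawn, 55.9%, and FGF ligands and receptors the highest share called lower among them, 8 of 20.

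Interferon-induced effector genes were called higher in 231BrM-2a far more often than lower. Of 59 measured effector genes, 33 were called higher and 1 lower, with a median difference of 0.56. The number called higher ran from 25 to 34 over the alternatives tried. For part of these genes the promoter is shown, since the comparison did not use its letters. The list holds known interferon-induced genes, many of which carry the response element, so its share among them does not depend on these arrays. The core was searched as GAAANNGAAA on both strands in RefSeq promoters of assembly GRCh38.p14, each running from 250 bases before to 50 after a listed start, and a gene counted as holding it when any of its listed starts did. Windows of 46 bases around the first match follow, 5′ to 3′ on the strand of the gene, with the match in capitals. The first 4 genes were higher in 231BrM-2a. The last 3 were not called and were picked after their values were seen, to show the same letters upstream of genes that did not pass.
IFIT1, chr10:89392489-89392534 (+): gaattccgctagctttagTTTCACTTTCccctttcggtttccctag
MX1, chr21:41431836-41431881 (+): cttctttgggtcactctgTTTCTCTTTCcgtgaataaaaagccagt
BST2, chr19:17405733-17405778 (-): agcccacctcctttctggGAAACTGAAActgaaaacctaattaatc
ISG15, chr1:1013366-1013411 (+): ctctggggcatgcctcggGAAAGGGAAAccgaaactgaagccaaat
IFIT5, chr10:89414505-89414550 (+): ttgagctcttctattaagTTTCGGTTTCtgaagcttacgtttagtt
CXCL10, chr4:76023691-76023736 (-): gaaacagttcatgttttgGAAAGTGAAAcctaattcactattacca
RTP4, chr3:187368325-187368370 (+): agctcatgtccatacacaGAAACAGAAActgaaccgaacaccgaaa

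The core lay in the promoters of 32 of the 45 effector genes with a promoter sequence (71.1%), against 587 of 14237 genes in all (4.12%). Among effectors called higher it was found in 19 of 23, and among those not called in 13 of 22, so the letters were common on both sides. Over all genes, 5.33% of those called higher held it, 4.73% of those called lower and 3.89% of those not called. A stricter form with 3 GAAA blocks was present in 4 of the 45 effectors and in 0.211% of all promoters. The core is AT-rich and short, and a match is a description of the letters, not a site.

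**Figure D3:**
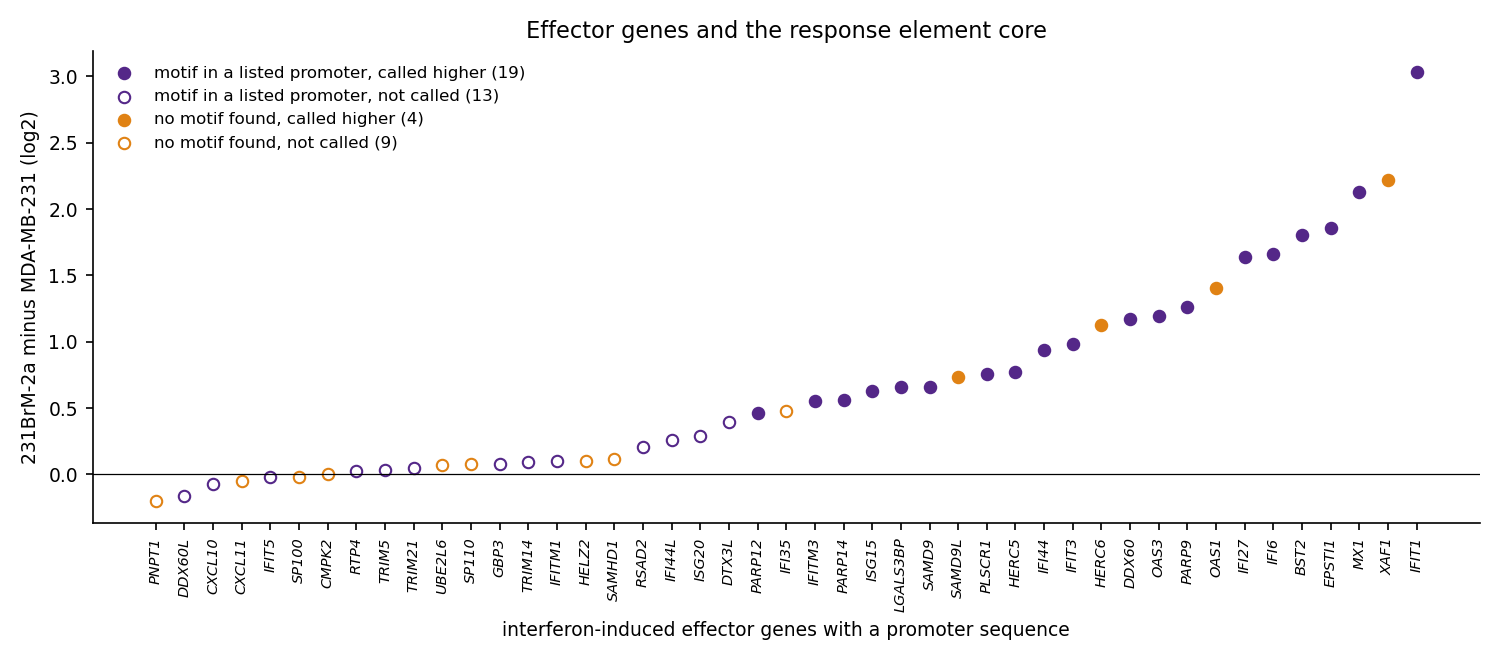
Each point is 1 of the 45 interferon-induced effector genes with a promoter sequence, ordered by the log2 difference between 231BrM-2a and MDA-MB-231 on the y axis; filled points were called higher and open points were not called, and colour shows whether the response element core was found. The 6 genes with the largest differences include XAF1, in whose listed promoters the core was not found, and 13 genes with the core lie among those not called.

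The tetratricopeptide gene IFIT1, whose protein binds foreign RNA, read 7.15 and 6.76 in MDA-MB-231 against 10.05 and 9.92 in 231BrM-2a. Both brain-selected arrays stood clear of both parental arrays, and of the 231BoM-1833 arrays at 7.21 and 6.96 (231BrM-2a minus 231BoM-1833 2.90 ± 0.15, adjusted p = 2.84e-06). MX2, a GTPase that restricts viruses at the nuclear pore, went from 5.73 and 5.59 to 7.53 and 7.43, a difference of 1.82 ± 0.11 (adjusted p = 1.56e-05). Its relative MX1 read 6.36 and 6.42 against 8.81 and 8.23 (difference 2.13 ± 0.18, adjusted p = 1.01e-04). Epithelial stromal interaction gene EPSTI1 went from 5.32 and 5.26 to 7.20 and 7.09, with 231BoM-1833 lower still at 4.79 and 5.05. GBP2, a guanylate-binding GTPase, read 5.52 and 5.72 against 7.42 and 7.82, and the RNA-cleaving antiviral route was represented by the synthetase gene OAS1 at 6.55 and 6.68 against 8.03 and 8.0 (adjusted p = 2.05e-04). XAF1, which binds an apoptosis inhibitor, read 6.84 and 6.95 against 9.55 and 8.68, with a gap between the brain-selected arrays wider than for the other effectors named here.

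The tetherin gene BST2 differed in pattern from IFIT1. It read 7.84 and 7.66 in MDA-MB-231 against 9.48 and 9.63 in 231BrM-2a (difference 1.80 ± 0.12), and 231BoM-1833 stood at 9.55 and 9.64, with no call between the derivatives (adjusted p = 0.848). ISG15, the ubiquitin-like modifier, read 7.54 and 7.75 against 8.37 and 8.18, a call that was lost without 231BrM-2a replicate 1 (adjusted p = 0.06) or MDA-MB-231 replicate 1 (adjusted p = 0.0565). TRIM22, an antiviral ubiquitin ligase gene, was the only effector called lower. It read 6.48 and 6.03 against 5.75 and 5.70 and was lost as a call without 231BrM-2a replicate 1 (adjusted p = 0.12), 231BrM-2a replicate 2 (0.169) or MDA-MB-231 replicate 1 (0.202); 231BoM-1833 stood at 7.69 and 7.85. The membrane restriction gene IFITM1 (9.16 and 8.89 against 9.04 and 9.21) and the 3 genes shown for their promoters, IFIT5, CXCL10 and RTP4, were not called (adjusted p = 0.634, 0.934, 0.739 and 0.902). CXCL10, the interferon-induced chemokine, read 4.43 and 4.20 in MDA-MB-231 against 4.19 and 4.29 in 231BrM-2a.

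Upstream of the effectors the differences were smaller. The interferon beta gene IFNB1 read 3.27 and 3.82 against 3.72 and 3.59 and was not called (adjusted p = 0.724). Among 11 ligands and receptors, 2 were called higher and 0 lower: IL10RB, a shared chain of the interferon lambda receptor, went from 9.72 and 9.72 to 10.49 and 10.46 (0.76 ± 0.10), and IFNAR2 from 7.20 and 7.21 to 7.64 and 7.72, a call lost without each of the 4 arrays (adjusted p = 0.0883 to 0.149). Of 14 signal transducers measured on clusters of their own, 4 were called higher and 0 lower. IRF1, a transcription factor of the pathway, read 8.12 and 8.20 against 8.96 and 8.79 (difference 0.72 ± 0.11, adjusted p = 0.00208). IRF9, USP18 and PIAS1 were the others, with differences of 0.43 ± 0.11, 0.63 ± 0.13 and 0.71 ± 0.14, and each lost its call without 231BrM-2a replicate 2 (adjusted p = 0.122, 0.0966 and 0.0555) or the second MDA-MB-231 array (0.176, 0.0986 and 0.0744); IRF9 also lost it without 231BrM-2a replicate 1 (0.108). The induced factor gene IRF7 was not called (8.21 and 8.33 against 8.13 and 8.07).

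Among 15 sensors of foreign nucleic acid, 2 were called lower and 5 higher (3 without MDA-MB-231 replicate 1 or 231BrM-2a replicate 2, 1 without MDA-MB-231 replicate 2, 2 without 231BrM-2a replicate 1). IFIH1, which senses long double-stranded RNA, went from 5.88 and 5.84 to 7.62 and 7.29, a 3.01-fold difference (adjusted p = 1.19e-04), with 231BoM-1833 in between at 6.97 and 6.70. AIM2, an inflammasome sensor of DNA, was lower, at 6.11 and 5.93 against 5.10 and 5.21 (difference -0.86 ± 0.15). RIGI and the DNA sensor gene CGAS were not called (adjusted p = 0.428 and 0.263). For class I presentation, 1 of 12 genes was called lower and 5 higher (3 without MDA-MB-231 replicate 1 or 231BrM-2a replicate 1, 2 without MDA-MB-231 replicate 2 or 231BrM-2a replicate 2), and for class II 1 of 8 higher and 2 lower. The class I light chain gene B2M read 11.15 and 11.12 against 12.01 and 11.86, and the immunoproteasome gene PSMB9 9.38 and 9.25 against 9.99 and 10.09 (difference 0.72 ± 0.11). The class II chain gene HLA-DPA1 went the other way, from 7.23 and 7.03 to 6.16 and 6.18 (difference -0.96 ± 0.12, adjusted p = 8.43e-04).

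Feedback inhibitors of growth factor signalling were lower in 231BrM-2a. In the FGF list, which holds ligands, receptors and the Sprouty and dual-specificity phosphatase genes that restrain ERK signalling, 1 of 20 genes was called higher and 8 lower (5 without MDA-MB-231 replicate 1 or 2 or 231BrM-2a replicate 1). DUSP6, the cytoplasmic ERK phosphatase, read 12.49 and 12.46 in MDA-MB-231 against 10.79 and 10.93 in 231BrM-2a. DUSP4, a nuclear phosphatase, read 9.51 and 9.39 against 7.80 and 7.59. SPRY2 went from 9.07 and 9.15 to 7.39 and 7.45 and SPRY4 from 10.46 and 10.32 to 8.83 and 8.67. In all 4 genes both brain-selected arrays lay below both parental arrays, with differences of -1.62 ± 0.14, -1.76 ± 0.12, -1.69 ± 0.10 and -1.64 ± 0.14 (adjusted p = 1.06e-04, 2.73e-05, 1.79e-05 and 1.01e-04). They also lay below both 231BoM-1833 arrays, with differences from that line of -1.79 ± 0.14, -2.07 ± 0.12, -2.51 ± 0.10 and -1.13 ± 0.14 (adjusted p at most 4.95e-04).

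Some members of other lists that are known targets or partners of the same pathway were called lower as well. DUSP5, another ERK phosphatase, sits in the immediate early list, where 4 of 20 genes were called higher and 5 lower (3 without MDA-MB-231 replicate 1 or 231BrM-2a replicate 1, 2 without MDA-MB-231 replicate 2 or 231BrM-2a replicate 2), and read 11.06 and 10.88 against 9.57 and 9.38 (difference -1.49 ± 0.13, adjusted p = 1.21e-04). Of 15 EGF-family ligands, receptors and regulators, 4 were called lower and 1 higher. The ligand epiregulin, EREG, read 10.46 and 10.03 against 8.79 and 9.30, and ERRFI1, which inhibits the EGF receptor, 12.81 and 12.85 against 11.63 and 11.73 (difference -1.15 ± 0.11). The receptor gene EGFR was not called, at 10.99 and 11.20 against 11.14 and 10.95. MYC read 12.61 and 12.68 against 11.82 and 11.89 (-0.79 ± 0.10, adjusted p = 0.00104), the cyclin genes CCND1 10.84 and 10.82 against 10.23 and 10.04 and CCND2 9.53 and 9.35 against 8.31 and 8.16. The early response gene IER3 was lower too (-0.90 ± 0.13), with 231BoM-1833 above both lines at 12.18 and 12.02. FOS, JUN and ATF3 went up by 0.86 ± 0.25, 0.41 ± 0.11 and 1.08 ± 0.23. None of the 3 calls held in all of the fits that left out 1 array: without 231BrM-2a replicate 2 the adjusted p was 0.257, 0.213 and 0.0691, and without the first or the second MDA-MB-231 array it was 0.215 or 0.0687 for FOS, 0.141 or 0.106 for JUN and 0.0509 or 0.0937 for ATF3. Without 231BrM-2a replicate 1 only FOS kept its call (adjusted p = 0.0513 for JUN and 0.0604 for ATF3).

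**Figure D4:**
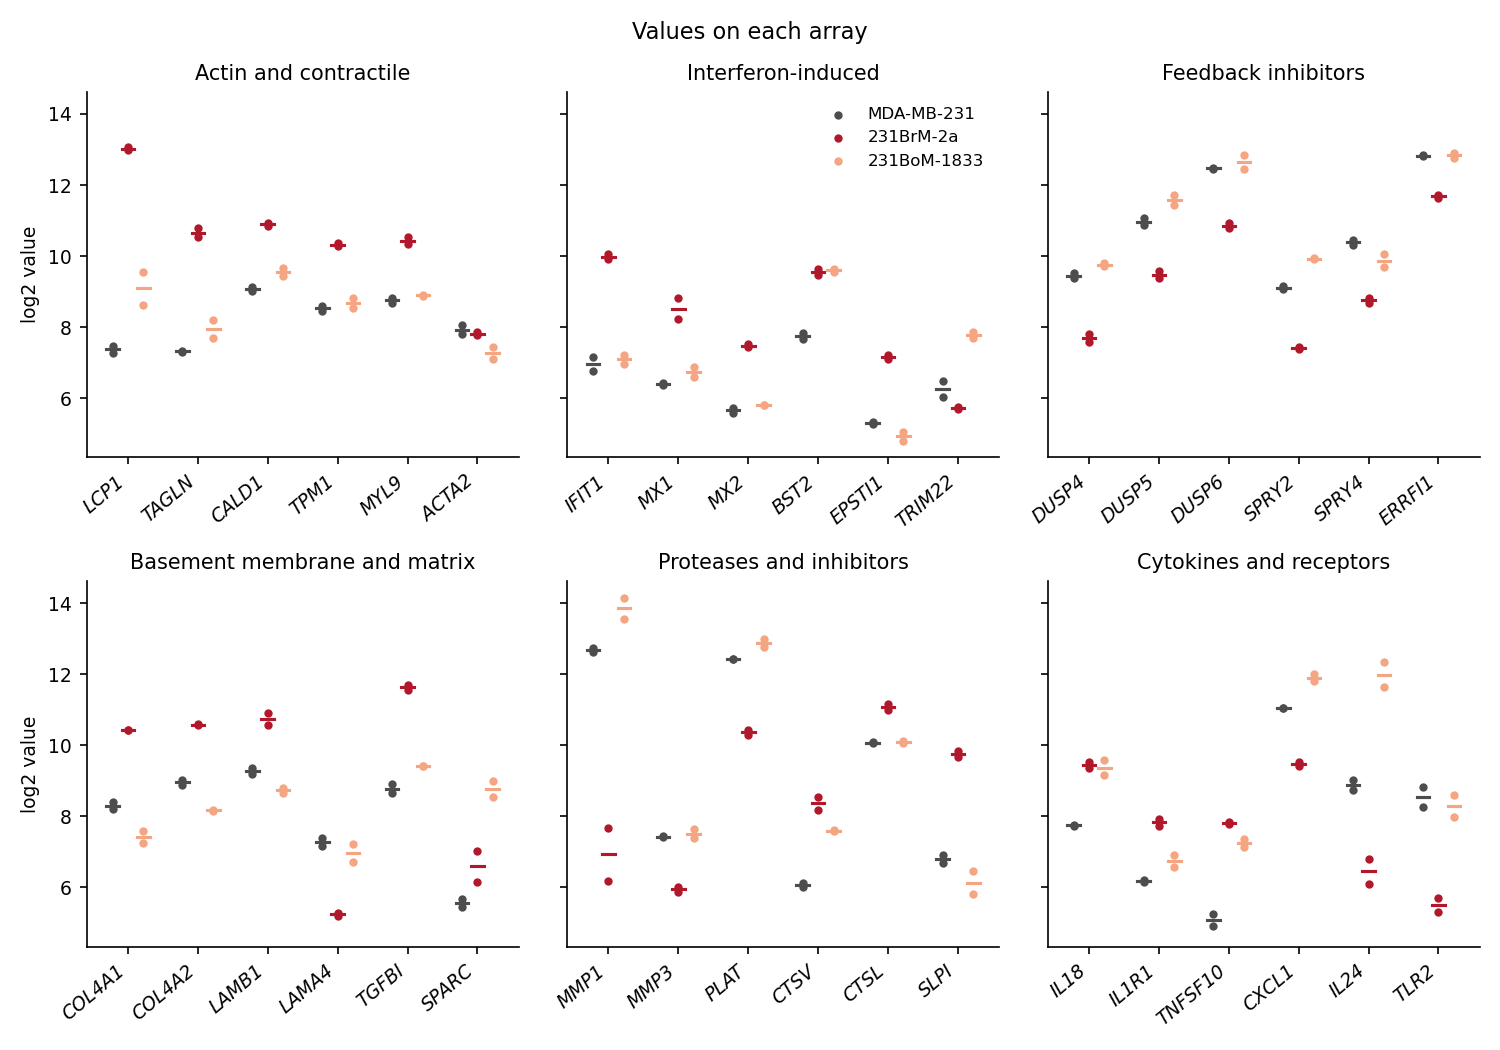
Points are log2 values on single arrays and bars the mean of each line's 2 arrays, for 36 genes of 6 groups. In the panel of feedback inhibitors all 231BrM-2a values lie below all values of both other lines, while ACTA2 overlaps between 231BrM-2a and MDA-MB-231, and BST2 between the 2 derivatives.

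Among actin genes a few showed large increases. LCP1, which bundles actin filaments and is best known from leukocytes, read 12.99 and 13.06 in 231BrM-2a, against 7.47 and 7.28 in MDA-MB-231 and 9.55 and 8.63 in 231BoM-1833. The 3 lines did not overlap, and the difference from MDA-MB-231 was 5.65 ± 0.24 (adjusted p = 2.97e-06). Its relatives, the plastin genes PLS1 (8.38 and 8.37 against 8.35 and 8.65) and PLS3 (11.01 and 11.02 against 10.87 and 10.98) were not called, nor was the fascin gene FSCN1 (adjusted p = 0.98). Among 18 leukocyte markers 0 were called higher, as given above. Of 19 actin-bundling genes in all, 4 were called higher, LCP1, PALLD, ACTN1 and MARCKS, and 1 lower, CORO1C. All but LCP1 and PALLD lost their calls without each of the 4 arrays (adjusted p = 0.0543 to 0.198). PALLD, which organises stress fibres, read 8.89 and 8.47 against 9.53 and 9.62 (difference 0.89 ± 0.16, adjusted p = 0.00508).

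Contractile genes of the smooth muscle type made up a larger block, with 11 of 27 called higher and 1 lower, and a median of 0.25. The number called higher ran from 8 to 12 over the alternatives. TAGLN, an actin cross-linker, read 7.31 and 7.31 against 10.54 and 10.78, 10.2-fold higher (difference 3.35 ± 0.16, adjusted p = 6.18e-06). The thin-filament regulator CALD1 went from 9.13 and 9.01 to 10.85 and 10.93, the tropomyosin TPM1 from 8.60 and 8.46 to 10.28 and 10.37 and the regulatory light chain MYL9 from 8.69 and 8.83 to 10.34 and 10.53. These 4 genes also stood above 231BoM-1833, by 2.71 ± 0.16, 1.34 ± 0.12, 1.65 ± 0.13 and 1.54 ± 0.11 (adjusted p = 7.37e-06, 7.00e-05, 3.12e-05 and 2.19e-05). The 2 genes most used to mark smooth muscle and myofibroblasts did not pass: ACTA2 read 8.05 and 7.80 against 7.78 and 7.85 and CNN1 6.03 and 5.85 against 5.99 and 5.92 (adjusted p = 0.634 and 0.943). SMTN was the member called lower (-0.75 ± 0.13).

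The gamma-2 smooth muscle actin gene ACTG2 read 6.40 and 6.36 in MDA-MB-231 against 7.38 and 8.61 in 231BrM-2a, so the 2 brain-selected arrays differed by more than 1 log2 unit. Its difference of 1.61 ± 0.32 was 2.23 without 231BrM-2a replicate 1 and 1.0 without 231BrM-2a replicate 2, and it lost its call without MDA-MB-231 replicate 2 (adjusted p = 0.0606). Its promoter is shown as an example of the CArG box, the element bound by serum response factor, which was searched on both strands after the data were seen.
ACTG2, chr2:73892880-73892925 (+): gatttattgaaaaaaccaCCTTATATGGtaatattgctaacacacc
Capitals mark the first match. The box was found in 7 of 23 contractile genes with a promoter sequence (30.4%) and in 242 of all 14237 genes (1.7%). Among these contractile genes it lay in 4 of the 9 called higher, in 2 of the 13 not called and in the 1 called lower. Over all genes, 2.07% of those called higher and 1.71% of those called lower held it. SRF, the gene of that factor, read 10.12 and 10.20 against 9.70 and 9.70, a difference of -0.46 ± 0.10 whose call was lost without each of the 4 arrays (adjusted p = 0.0559 to 0.107).

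Motor and filament genes went both ways. The class I myosin MYO1D went from 5.29 and 5.37 to 8.90 and 8.81, with 231BoM-1833 also high at 8.26 and 8.25. The filopodial motor MYO10 and the epithelial vesicle motor MYO5C were lower, with differences of -0.78 ± 0.11 and -1.02 ± 0.13, and of 16 unconventional myosins 3 were called higher and 4 lower. Among 19 intermediate filament genes, 4 were called higher and 6 lower (2 without MDA-MB-231 replicate 1 or 231BrM-2a replicate 1 or 2, 3 without MDA-MB-231 replicate 2). The simple-epithelial keratin KRT7 read 10.52 and 10.31 against 11.74 and 11.76, with 231BoM-1833 below both at 9.06 and 8.88. KRT8 rose by 0.75 ± 0.12, while its partner KRT18 was not called (adjusted p = 0.413). KRT19 went from 10.46 and 10.46 to 8.67 and 9.05 and KRT15 from 6.82 and 6.57 to 5.61 and 5.50, both lower (adjusted p = 1.22e-04 and 3.37e-04).

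Adhesion genes of the immunoglobulin family were called higher in 10 of 29 cases and lower in 2. MPZL2, an epithelial and thymic adhesion gene, read 10.51 and 10.72 in 231BrM-2a, against 5.43 and 5.32 in MDA-MB-231 and 5.24 and 4.70 in 231BoM-1833. Only the brain-selected arrays were high (37.8-fold over MDA-MB-231, difference 5.24 ± 0.17, adjusted p = 5.33e-07). MPZL3, its close relative, was higher by less (5.81 and 5.43 against 6.91 and 7.04, 1.36 ± 0.14). The endothelial and melanoma adhesion gene MCAM went from 8.96 and 8.54 to 9.95 and 10.38 and the synaptic and epithelial adhesion gene CADM1 from 5.65 and 5.77 to 7.14 and 6.93. ICAM1, a ligand of leukocyte integrins, read 9.94 and 10.19 against 11.07 and 11.30 (1.12 ± 0.15, adjusted p = 0.0011). L1CAM, a neural adhesion protein through which brain-colonising cells are known to spread along capillaries, read 6.89 and 6.69 against 7.68 and 7.76 (difference 0.93 ± 0.13, adjusted p = 0.00147), and 231BoM-1833 stood at 8.0 and 7.72, with no call between the derivatives (adjusted p = 0.501). Cadherins stayed near the background over all genes, with 3 of 29 called higher and 3 lower, though their median log2 level was low (5.74). CDH11, a mesenchymal cadherin, was the one with the largest difference, 7.21 and 7.20 against 5.83 and 5.40. The desmosomal cadherin DSC2 was lower as well (8.05 and 7.86 against 5.92 and 6.19).

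Integrin chains were divided. The beta-3 chain gene ITGB3 read 8.35 and 8.12 against 10.17 and 10.75 (2.22 ± 0.19, adjusted p = 1.17e-04), and ITGAV, the alpha chain it pairs with in the vitronectin receptor, 9.96 and 9.99 against 10.97 and 11.01 (1.01 ± 0.10). Both were also above 231BoM-1833 (adjusted p = 1.16e-04 and 0.00399). Among collagen-binding chains 2 were lower: ITGA2 read 10.73 and 10.84 against 9.43 and 9.37 and ITGA10 9.26 and 9.18 against 6.58 and 6.83 (adjusted p = 8.13e-05 and 1.97e-05). The common beta chain gene ITGB1 was not called (11.96 and 12.00 against 12.03 and 12.09).

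Of 9 laminin chain genes, 2 were called lower and 5 higher (3 without MDA-MB-231 replicate 1 or 231BrM-2a replicate 1 or 2, 2 without MDA-MB-231 replicate 2). LAMB1 read 9.35 and 9.20 against 10.56 and 10.90 and LAMA5 9.23 and 9.08 against 9.84 and 9.93 (differences 1.46 ± 0.14 and 0.73 ± 0.11); these chains occur in the trimers of vascular and epithelial basement membrane. LAMA4, a chain of endothelial basement membrane, went from 7.18 and 7.40 to 5.21 and 5.27, and LAMB3, a chain of the epithelial anchoring laminin, from 11.28 and 11.32 to 10.19 and 10.09 (adjusted p = 8.41e-05 and 0.00108). The type IV collagen genes COL4A1 and COL4A2, neighbours that share a promoter region, read 8.39 and 8.20 and 9.03 and 8.89 in MDA-MB-231 against 10.42 and 10.43 and 10.56 and 10.59 in 231BrM-2a. In 231BoM-1833 they lay below the parental values, at 7.60 and 7.25 and 8.15 and 8.19. Of 28 collagen chains, 8 were called higher and 2 lower. COL5A1 and COL12A1 rose by 1.25 ± 0.11 and 1.23 ± 0.11, while the beaded-filament chain COL6A3 went down from 7.79 and 8.14 to 6.13 and 6.04.

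Among other matrix genes 16 of 37 were called higher and 2 lower, between 11 and 17 higher over the alternatives. CRISPLD2, a secreted glycoprotein gene, read 5.56 and 5.69 against 9.36 and 9.64, with 231BoM-1833 at 5.35 and 5.30. The brain-selected arrays were 14.7-fold above the parental mean (adjusted p = 5.33e-07), and the other 4 arrays lay close together. MATN2, a filament-forming matrix protein gene, read 6.27 and 6.31 against 9.35 and 9.38, but 231BoM-1833 was nearly as high (9.05 and 9.01, adjusted p between the derivatives 0.0381). EFEMP1, a fibulin, went from 10.51 and 10.11 to 12.43 and 12.66 and FBN1, the main microfibril protein, from 8.61 and 8.56 to 10.13 and 10.02. The integrin ligand EDIL3 went from 9.70 and 9.71 to 11.74 and 11.98. SPARC rose from 5.68 and 5.44 to 6.15 and 7.03, a call lost without 231BrM-2a replicate 2 (adjusted p = 0.12) or either MDA-MB-231 array (0.0681 and 0.149), and stayed far below 231BoM-1833 (8.99 and 8.55). TNC and FN1 were not called (adjusted p = 0.827 and 0.869). MFAP2, another microfibril gene, was lower (-1.14 ± 0.23), a call lost without MDA-MB-231 replicate 1 (adjusted p = 0.0691).

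Fibroblast and pericyte markers moved with the matrix genes, which several of them also belong to. Of 12, 6 were called higher (PDGFRB, DCN, CSPG4, RGS5, COL1A1 and LUM; 3 with dim clusters left out) and 0 lower, and the list's mean log2 value was 6.33 and 6.36 in 231BrM-2a, against 5.96 and 5.95 in MDA-MB-231 and 5.90 and 5.89 in 231BoM-1833. PDGFRB, the pericyte growth factor receptor, read 6.20 and 6.20 against 7.78 and 8.01 (1.70 ± 0.13, adjusted p = 6.54e-05), and the proteoglycan gene DCN 6.11 and 5.80 against 6.77 and 7.10. LUM, a proteoglycan made by fibroblasts, read 3.59 and 3.74 against 4.05 and 4.01, and its call was lost without each of the 4 arrays (adjusted p = 0.09 to 0.205). The calls of RGS5 and COL1A1 were lost without 231BrM-2a replicate 1 and MDA-MB-231 replicate 1 for RGS5 (adjusted p = 0.0787 and 0.0845) and without 231BrM-2a replicate 2 and MDA-MB-231 replicate 2 for COL1A1 (0.0732 and 0.0573), and ACTA2 was not called, as given above. Whether other cells had a part in these values was not tested, and in bulk RNA more cells of a type and more RNA per cell cannot be told apart.

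Hyaluronan genes showed 1 large decrease. HAS2, a synthase of the polymer, read 10.60 and 10.85 against 6.51 and 6.71, 17.3-fold lower (adjusted p = 3.98e-06), with 231BoM-1833 near the parental level at 10.47 and 9.87 (231BrM-2a minus 231BoM-1833 -3.56 ± 0.19, adjusted p = 3.35e-06). HAS3 was not called (6.40 and 6.34 against 6.31 and 6.55). CEMIP2, a cell-surface hyaluronidase, went the other way, from 8.97 and 8.61 to 10.29 and 10.29 (difference 1.5 ± 0.15, adjusted p = 2.19e-04). Of 15 genes of hyaluronan synthesis, breakdown and binding, 2 were called higher and 2 lower, near the background share.

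Genes first described in the nervous system changed one by one rather than as a block. TENM2, a teneurin that links neurons across the synapse, read 6.35 and 6.31 in MDA-MB-231 against 10.56 and 10.64 in 231BrM-2a, while 231BoM-1833 was below the parental arrays (5.99 and 5.59). The 2 derivatives thus lay on opposite sides of their parent (4.27 ± 0.14 for 231BrM-2a, adjusted p = 5.33e-07). Among the latrophilin genes, which encode its known partners, ADGRL2 and ADGRL3 were not called (adjusted p = 0.163 and 0.547), and ADGRL1 had a difference of -0.34 ± 0.10, a call lost without each of the 4 arrays (adjusted p = 0.138 to 0.198). Among 45 axon guidance genes, 10 were called higher (5 without MDA-MB-231 replicate 2 or 231BrM-2a replicate 2, 6 without 231BrM-2a replicate 1) and 8 lower (5 without MDA-MB-231 replicate 1 or 2). The repulsive cue SEMA3A read 8.64 and 8.89 against 5.63 and 5.54, its receptor gene NRP1 10.82 and 11.02 against 9.97 and 9.92, and ROBO1, the receptor of Slit cues, 8.68 and 8.69 against 5.91 and 5.59. All 3 were lower than in MDA-MB-231, with differences of -3.18 ± 0.12, -0.98 ± 0.17 and -2.94 ± 0.12 (adjusted p = 1.32e-06, 0.00398 and 2.97e-06), and also below 231BoM-1833 (adjusted p = 5.01e-07, 0.00159 and 5.01e-07). The ephrin genes diverged, with EFNA1 higher (7.07 and 6.99 against 8.30 and 8.25) and EFNB2 lower (9.34 and 9.37 against 8.33 and 8.31). SLIT2 and NTN4 were not called (adjusted p = 0.255 and 0.392).

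Transmitter receptor and synaptic genes had 4 of 43 called higher and 3 lower, close to the background over all genes. Their median log2 level was 5.61, and calls were rarer among dim genes, so that background is not one of like level. The GABA receptor chain GABRA3 went from 6.13 and 6.24 to 4.31 and 4.13, and 231BoM-1833 was near the latter at 4.57 and 4.91. The glutamate transporter genes SLC1A1 and SLC1A3 were higher, at 5.90 and 5.89 against 6.85 and 7.28 and 6.49 and 7.18 against 8.10 and 7.80 (differences 1.17 ± 0.14 and 1.11 ± 0.20). The glutamate receptor genes GRIA1 and GRIN2B were not called (adjusted p = 0.756 and 0.523). SLITRK1, a neuronal adhesion gene, went from 6.94 and 6.87 to 5.09 and 5.27. The neurotrophin BDNF read 7.17 and 6.94 against 7.83 and 8.26, a call lost without 231BrM-2a replicate 2 (adjusted p = 0.0868) or MDA-MB-231 replicate 2 (0.0912), and its receptor NTRK2 was not called (5.22 and 5.33 against 5.16 and 5.16).

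Metalloproteinase genes were called lower more often than higher. Of 22 metalloproteinase and inhibitor genes, 2 were called higher and 5 lower (2 without MDA-MB-231 replicate 1 or 231BrM-2a replicate 1, 3 without MDA-MB-231 replicate 2 or 231BrM-2a replicate 2). The interstitial collagenase MMP1 read 12.64 and 12.75 in MDA-MB-231 against 7.67 and 6.18 in 231BrM-2a, and 231BoM-1833 was above the parental line at 13.57 and 14.15. Its difference of -5.76 ± 0.39 (adjusted p = 3.13e-05) was -6.51 without 231BrM-2a replicate 1 and -5.02 without replicate 2. MMP3, its neighbour on chromosome 11, went from 7.44 and 7.42 to 6.0 and 5.88 (-1.49 ± 0.12, adjusted p = 8.46e-05). The gelatinase genes MMP9 and MMP2 and the stromelysin MMP10 had differences of -0.82 ± 0.16, -0.45 ± 0.12 and -0.39 ± 0.11, and all 3 calls were lost without 231BrM-2a replicate 1 (adjusted p = 0.0538, 0.106 and 0.222) or MDA-MB-231 replicate 1 (0.0523, 0.107 and 0.0822); those of MMP2 and MMP10 were also lost without either other array (adjusted p up to 0.236). The membrane protease MMP14 and the inhibitor genes TIMP1, TIMP2 and TIMP3 were not called (adjusted p = 0.303, 0.107, 0.149 and 0.135). The AP-1 site, searched after the data were seen as TGANTCA on both strands, lay in 15.8% of the promoters of genes lower by 2-fold or more (21 of 133), in 10.1% of those higher by 2-fold or more and in 8.0% of all. Without the 2-fold limit the share was 7.99% among genes called lower (98 of 1226), near that of all genes, and 6.9% among those called higher. Of the metalloproteinase and inhibitor genes, 10 had a promoter sequence and 2 of these held the site. Only 1 of those called lower had a sequence, MMP10, so the site could not be looked for in MMP1 or MMP3. MMP10 is shown as a metalloproteinase gene whose promoter holds it, though its difference was below 2-fold.
MMP10, chr11:102780671-102780713 (-): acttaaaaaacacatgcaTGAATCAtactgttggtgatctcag
Capitals mark the match.

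In the plasminogen system, where activators make plasmin and serpins block them, 6 of 23 genes were called lower and 3 higher. The tissue activator PLAT went from 12.43 and 12.44 to 10.43 and 10.29 (difference -2.07 ± 0.11, adjusted p = 1.07e-05). The serpin SERPINE2, which inhibits it and thrombin, went from 9.93 and 9.86 to 8.88 and 8.44, and SERPINB8 from 8.36 and 8.70 to 7.37 and 6.68. The urokinase gene PLAU was higher by 0.5 ± 0.14 and its receptor PLAUR had a difference of -0.46 ± 0.12; both calls were lost without each of the 4 arrays (adjusted p = 0.0902 to 0.201 and 0.0556 to 0.17). Neuroserpin, SERPINI1, an inhibitor of the tissue activator that is known from brain-colonising cells, read 5.80 and 5.81 against 5.34 and 5.32, a difference of -0.48 ± 0.10 (adjusted p = 0.0104). It too was not called once any of the 4 arrays was left out (adjusted p = 0.0572 to 0.0719).

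Some lysosomal proteases and protease inhibitors were higher. Of 21 cathepsin and cystatin genes, 7 were called higher and 3 lower (1 without MDA-MB-231 replicate 1 or 231BrM-2a replicate 1 or 2, 0 without MDA-MB-231 replicate 2). CTSV, a cysteine cathepsin, went from 6.11 and 6.01 to 8.18 and 8.55, CTSL from 10.09 and 10.07 to 10.99 and 11.17 and CTSB from 10.82 and 10.68 to 11.64 and 11.67 (adjusted p = 1.50e-05, 3.75e-04 and 5.42e-04). The sheddase ADAM10 read 11.01 and 10.98 against 12.11 and 12.22 (1.17 ± 0.10). SLPI, the secretory leukocyte protease inhibitor, read 6.90 and 6.69 against 9.84 and 9.67, with 231BoM-1833 below the parental line at 6.48 and 5.80. The complement proteases C1R and C1S, neighbours on chromosome 12, went up together, from 7.36 and 7.23 to 9.08 and 9.53 and from 6.29 and 6.10 to 8.25 and 8.43 (differences 2.01 ± 0.17 and 2.14 ± 0.13, adjusted p = 9.43e-05 and 2.33e-05).

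Cytokine genes moved in both directions, also within the interleukin-1 family. Of 39 interleukin and receptor genes, 6 were called lower and 11 higher (6 without MDA-MB-231 replicate 2). IL18, a cytokine of the interleukin-1 family, went from 7.77 and 7.73 to 9.37 and 9.54, and 231BoM-1833 read 9.57 and 9.17, with no call between the derivatives (adjusted p = 0.748). The receptor IL1R1 went from 6.22 and 6.15 to 7.73 and 7.94, while the ligand gene IL1B went down from 9.42 and 9.07 to 7.84 and 8.33 (difference -1.16 ± 0.21, adjusted p = 0.00512). IL6 read 8.79 and 8.84 against 10.04 and 10.22 (1.31 ± 0.23). IL24 read 9.01 and 8.74 against 6.10 and 6.80 and 11.64 and 12.34 in 231BoM-1833, so the lines stood in 3 separate ranges. IL13RA2, a decoy receptor, was lower than in the parental line (5.26 and 5.58 against 4.23 and 4.52) and in 231BoM-1833 higher (9.66 and 9.56). IL11 was not called (7.76 and 8.26 against 7.48 and 7.59, adjusted p = 0.0634), but passed without MDA-MB-231 replicate 1 (adjusted p = 0.0156).

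Chemokine genes that draw neutrophils were among those called lower. Of 25 chemokine and receptor genes, 4 were called lower and 2 higher. CXCL8, CXCL1, CXCL2 and CXCL3 lie near each other on chromosome 4, and with EREG they formed a run of 5 genes called lower once genes with a mean log2 value of 7 or less were left out. CXCL1 read 11.04 and 11.05 against 9.52 and 9.43 (-1.57 ± 0.11, adjusted p = 3.56e-05) and CXCL8 11.21 and 11.47 against 9.48 and 9.83 (-1.69 ± 0.24, adjusted p = 0.00172). CXCL3 had a difference of -0.83 ± 0.13, and CXCL2 one of -0.96 ± 0.19, a call lost without 231BrM-2a replicate 1 (adjusted p = 0.059) or MDA-MB-231 replicate 2 (0.0807). CXCL16, a transmembrane chemokine, was higher, at 6.15 and 6.14 against 7.33 and 7.49. CXCR4, the receptor known from homing to bone and brain, was not called (6.81 and 6.75 against 6.09 and 6.58, adjusted p = 0.0762) but passed without 231BrM-2a replicate 2 (difference -0.69, adjusted p = 0.0193). Not called either were CCL2 and CCL5 (adjusted p = 0.878 and 0.313).

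For the death ligand of the TNF family the ligand and 2 of its receptors went opposite ways. TNFSF10 went from 5.26 and 4.91 to 7.79 and 7.83 (2.73 ± 0.14, adjusted p = 7.13e-06). The death receptor TNFRSF10A was lower (-0.61 ± 0.10), the decoy receptor TNFRSF10D was lower (11.21 and 11.17 against 9.75 and 9.87) and the death receptor TNFRSF10B was not called (adjusted p = 0.7). Among 27 Toll-like receptor and NF-kappaB genes, 2 were called higher and 7 lower (4 without MDA-MB-231 replicate 1, 2 without MDA-MB-231 replicate 2, 3 without 231BrM-2a replicate 2). TLR2, which senses bacterial lipoproteins, read 8.84 and 8.28 against 5.70 and 5.32 (-3.05 ± 0.24, adjusted p = 7.05e-05), and TLR4, the lipopolysaccharide receptor, 10.49 and 10.54 against 10.37 and 10.33 with no call. The feedback genes NFKBIA and TNFAIP3 were not called (adjusted p = 0.202 and 0.278).

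In the TGF-beta and activin list, 11 of 26 genes were called higher and 5 lower (2 without MDA-MB-231 replicate 1 or 2, 1 without 231BrM-2a replicate 1, 3 without 231BrM-2a replicate 2). The ligand TGFB2 read 10.51 and 10.41 against 12.00 and 12.01 and the accessory receptor TGFBR3 8.30 and 7.95 against 9.63 and 9.68, while TGFB1 had a difference of -0.56 ± 0.11, a call lost without 231BrM-2a replicate 1 (adjusted p = 0.0699) or MDA-MB-231 replicate 1 (0.0628). The target TGFBI, a matrix protein, went from 8.91 and 8.65 to 11.56 and 11.71, but the early target SMAD7 and the connective tissue growth factor gene CCN2 were not called (adjusted p = 0.519 and 0.176). LTBP1, which stores latent TGF-beta, was lower (11.53 and 11.39 against 10.38 and 10.67). In the BMP list 8 of 21 were called higher (5 without MDA-MB-231 replicate 2) and 5 lower (3 without MDA-MB-231 replicate 2). The antagonist CHRDL1 went from 9.66 and 9.64 to 5.93 and 5.76 (-3.81 ± 0.11, adjusted p = 4.51e-07). The ligand BMP4 was not called (adjusted p = 0.0937), and the target genes ID2 and ID3 rose from 5.55 and 5.59 to 6.64 and 6.95 and from 7.84 and 7.78 to 8.85 and 9.37 (differences 1.22 ± 0.14 and 1.30 ± 0.17). ID1 rose by 0.85 ± 0.19, a call lost without 231BrM-2a replicate 2 (adjusted p = 0.0966), MDA-MB-231 replicate 1 (0.0659) or MDA-MB-231 replicate 2 (0.0805).

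Of 22 angiogenic factors and receptors, 6 were called lower and 5 higher (3 without MDA-MB-231 replicate 1, 2 without MDA-MB-231 replicate 2 or 231BrM-2a replicate 2), the vascular endothelial growth factors VEGFA and VEGFC among the lower ones. VEGFA read 9.81 and 10.10 against 8.94 and 8.42 and the lymphatic ligand VEGFC 9.68 and 9.66 against 8.35 and 8.55 (differences -1.27 ± 0.17 and -1.22 ± 0.11, adjusted p = 0.00126 and 1.35e-04). ESM1, an endothelial proteoglycan that VEGF induces, read 8.09 and 8.47 against 5.16 and 4.96, and the VEGF receptor KDR 8.04 and 7.95 against 6.77 and 6.95 (adjusted p = 3.92e-06 and 4.25e-04). Of 10 endothelial, platelet and red cell markers 0 were called higher and 3 lower; their mean log2 value was 6.22 and 6.23 in MDA-MB-231 and 5.86 and 5.82 in 231BrM-2a, and the part of such cells in the values of KDR and ESM1 was not tested. HHIP, the decoy receptor of hedgehog ligands, went from 9.23 and 8.95 to 5.86 and 6.44. In the Wnt list 2 of 35 were called lower and 5 higher (3 without MDA-MB-231 replicate 1 or 231BrM-2a replicate 2). WNT5A, a ligand of the non-canonical branch, read 6.21 and 6.44 against 7.36 and 8.02, the co-receptor LRP5 8.17 and 8.03 against 9.39 and 9.64, and the nuclear effector LEF1 8.03 and 8.06 against 6.25 and 6.91. DKK1 and the feedback target AXIN2 were not called (adjusted p = 0.421 and 0.999). The Notch ligand JAG1 was lower (10.32 and 10.51 against 9.29 and 9.38).

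Epithelial genes moved in opposite directions. EHF, an epithelial ETS factor, went from 9.16 and 9.36 to 4.71 and 4.77 (-4.52 ± 0.11, adjusted p = 2.84e-07), with 231BoM-1833 above both at 10.84 and 10.83. The sodium channel chains SCNN1A and SCNN1G went up, from 7.14 and 7.38 to 9.59 and 9.44 and from 6.66 and 6.15 to 8.10 and 8.90 (differences 2.26 ± 0.12 and 2.10 ± 0.25), and the mucin MUC1 from 6.22 and 6.38 to 7.76 and 7.68. GRHL2, a keeper of epithelial identity, was not called (5.51 and 5.54 against 5.28 and 5.42). Of 12 mesenchymal transition factors, 1 was called higher and 3 lower, with LEF1, described above, and ZEB1 among the lower. ZEB1 fell by 0.54, a call lost without 231BrM-2a replicate 1 (difference -0.49) or MDA-MB-231 replicate 1 (-0.49). SNAI2, TWIST1 and ZEB2 were not called (adjusted p = 0.703, 0.177 and 0.14). Of 21 stemness factors and breast stem markers, 2 were called higher, ALDH1A3 and ITGB3, and 1 lower, MYC. Fewer were called higher under at least 1 alternative. KLF4, SOX2 and PROM1 were not called (adjusted p = 0.899, 0.562 and 0.702). UCA1, a long non-coding RNA first found in bladder carcinoma, read 5.97 and 6.0 against 9.84 and 10.57 and 6.27 and 6.57 in 231BoM-1833 (4.22 ± 0.21 over MDA-MB-231, adjusted p = 6.35e-06). Among 24 HOX genes 0 were called higher and 4 lower, all 4 of the HOXB cluster, with HOXB9 at 9.99 and 9.90 against 8.85 and 8.79.

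Several metabolic lists had shares of calls above the background, in directions that differed by list. Of 23 glycolysis genes, 1 was called lower and 10 higher (6 without MDA-MB-231 replicate 2 or 231BrM-2a replicate 2). The aldolase ALDOC read 7.27 and 7.18 against 8.62 and 8.93 and the neuronal enolase ENO2 9.22 and 8.96 against 10.24 and 10.50, while the hexokinase HK2 was lower (10.68 and 10.56 against 9.77 and 9.80) and LDHA was not called (adjusted p = 0.672). The pyruvate dehydrogenase kinases PDK1 and PDK4 were higher: PDK1 read 8.85 and 8.93 against 9.53 and 9.56, and PDK4 6.72 and 6.47 against 8.52 and 10.20. For PDK4 the difference was 3.60 without 231BrM-2a replicate 1 and 1.93 without replicate 2. Of 23 genes of serine, one-carbon and amino acid supply, 6 were called lower and 1 higher. PHGDH, the first enzyme of serine synthesis, went from 9.82 and 9.81 to 8.32 and 8.02 (-1.64 ± 0.15, adjusted p = 1.41e-04), and the amino acid transporter SLC38A2 from 13.09 and 12.99 to 12.02 and 11.82; the next enzyme of the route, PSAT1, was not called (10.68 and 10.77 against 10.65 and 10.10).

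Of 28 antioxidant and glutathione genes 9 were called higher and 2 lower. The transferase genes GSTM3 and GSTP1 rose from 7.08 and 6.6 to 8.76 and 8.93 and from 10.76 and 10.46 to 11.76 and 12.03, and the NRF2 targets NQO1 and GCLM from 9.33 and 9.14 to 10.12 and 10.35 and from 7.82 and 7.66 to 9.04 and 8.86 (differences 1.0 ± 0.12 and 1.21 ± 0.21). HMOX1, another such target, was not called (adjusted p = 0.168). The lactonase PON2 read 7.24 and 7.26 against 9.67 and 10.17, and the oestrogen-oxidising cytochrome CYP1B1 7.39 and 7.19 against 9.78 and 10.10. Of 38 cell cycle genes, CCND1 and CCND2 were called lower and 10 higher (5 without MDA-MB-231 replicate 1, 4 without MDA-MB-231 replicate 2 or 231BrM-2a replicate 2, 6 without 231BrM-2a replicate 1). The mitotic cyclin CCNB2 went from 10.05 and 9.96 to 10.92 and 10.96 and the phosphatase CDC25C from 7.96 and 7.59 to 8.58 and 8.84, but MKI67 was not called (9.97 and 9.91 against 10.08 and 10.16). Of 32 DNA replication genes 0 were called higher and 2 lower, with MCM2, PCNA and RRM2 not called (adjusted p = 0.942, 0.296 and 0.702).

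Genes reported for brain-seeking derivatives of this line family are no independent evidence here, and their counts were 0 higher and 7 lower (4 without MDA-MB-231 replicate 2 or 231BrM-2a replicate 1) of 14 reported high. COL13A1, a membrane collagen on that list, read 9.01 and 9.02 against 8.27 and 8.40 (-0.68 ± 0.10, adjusted p = 0.00217). The EGF-family ligand HBEGF read 10.28 and 10.38 against 9.68 and 9.78, a call lost without each of the 4 arrays (adjusted p = 0.0687 to 0.131), with 231BoM-1833 above both lines (11.93 and 11.49). The cyclooxygenase PTGS2 overlapped between the lines, at 8.09 and 8.06 in MDA-MB-231 against 7.47 and 8.49 in 231BrM-2a, while 231BoM-1833 read 10.34 and 10.20. ANGPTL4 and ST6GALNAC5 were not called (7.43 and 7.31 against 7.63 and 8.45 and 6.67 and 6.73 against 6.43 and 6.20), though ANGPTL4 passed without 231BrM-2a replicate 1 (adjusted p = 0.011) and PTGS2 without replicate 2 (adjusted p = 0.0327). Of 4 genes reported low, which are no independent evidence either, 3 were called higher and 0 lower. They were SCNN1A and TNFSF10, described above, and the retinoid-induced gene PLAAT4, which read 6.27 and 6.21 against 7.62 and 7.58.

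Calls were spread unevenly over chromosomes. Of 16889 measured protein-coding genes, 11.0% were called higher and 8.99% lower. On chromosome 15, 142 of 489 genes (29.0%) were called higher and 12 (2.45%) lower, and on chromosome 18, 70 of 239 (29.3%) lower and 15 (6.28%) higher. Chromosome 13 (22.9% higher) and chromosome X (19.1% higher and 14.1% lower) also stood above these shares, and chromosomes 4 and 6 had 17.8% and 17.5% called lower. Among genes with a mean log2 value above 7, where 15.2% were called higher and 11.9% lower in all, 41.3% of 300 genes of chromosome 15 were higher and 44.3% of 131 genes of chromosome 18 lower. The median difference of these genes was 0.34 on chromosome 15 and -0.33 on chromosome 18.

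**Figure D5:**
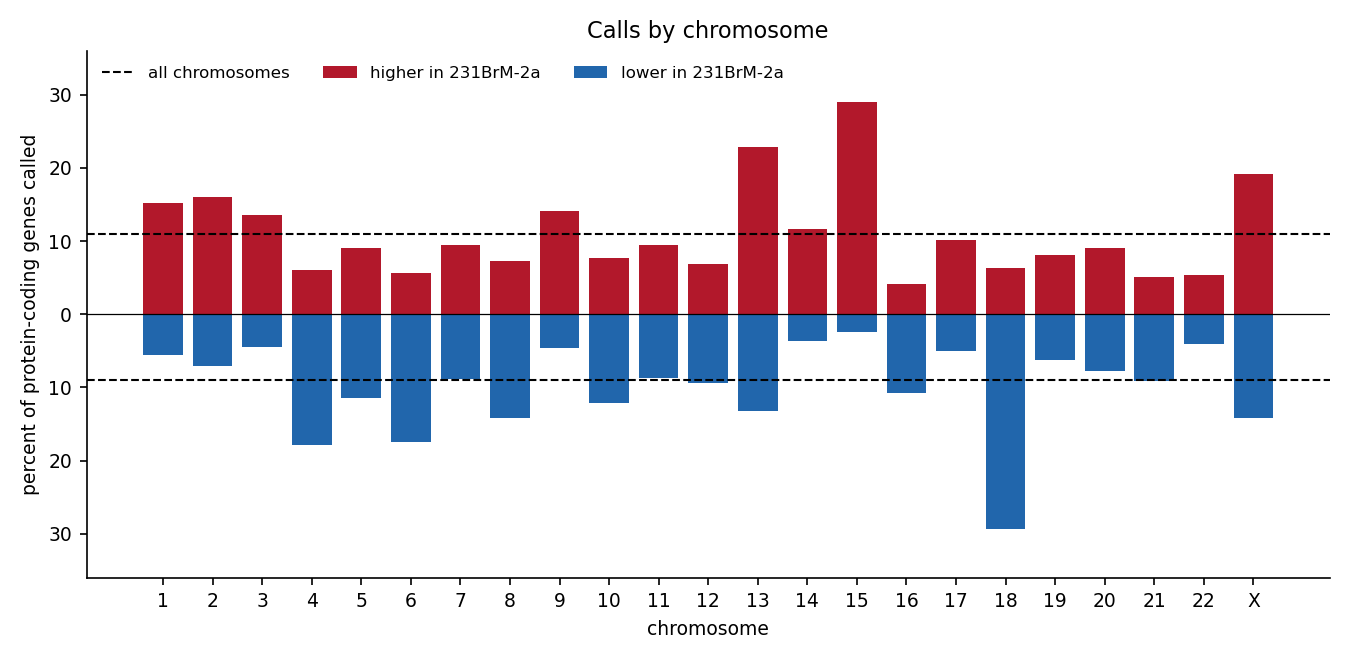
Bars give the percent of measured protein-coding genes of each chromosome called higher in 231BrM-2a (up) and lower (down), and dashed lines the 11.0% and 8.99% over all chromosomes. Chromosome 15 has the tallest bar upwards, 29.0%, and chromosome 18 the longest downwards, 29.3%.

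Neighbouring genes called the same way formed runs. Taking genes with a mean log2 value above 7 in the order of the RefSeq table, 28 runs of at least 5 genes were called higher and 17 lower. The longest run was 12 genes of chromosome 18 called lower, with a median difference of -0.69, from MBD1 over SMAD4, the common mediator of TGF-beta and BMP signals, to WDR7. SMAD4 read 9.78 and 9.74 against 9.25 and 9.26, with a difference of -0.51 ± 0.10 whose call was lost without any 1 of the 4 arrays (adjusted p = 0.0513 to 0.0569). RAB27B, a vesicle-docking GTPase in the same run, went from 7.44 and 7.67 to 5.90 and 5.85. A run of 10 genes called higher on chromosome 6 had a median of 0.77, and a run of 10 called higher on chromosome X, which ended at the pyruvate dehydrogenase kinase PDK3, a median of 0.60. TPM1, described above, lay in a run of 6 genes called higher on chromosome 15 (TLN2, TPM1, LACTB, RPS27L, RAB8B and APH1B, median 1.12, of which LACTB and RAB8B lost their calls without 3 of the 4 arrays), and LCP1 at the end of a run of 5 on chromosome 13 whose median was 0.65. CCBE1, a lymphangiogenic factor, and ZNF521, a zinc-finger factor, are chromosome 18 genes with large differences, going from 9.44 and 9.44 to 5.79 and 5.07 and from 8.22 and 8.19 to 5.48 and 5.67. Elsewhere, SPANXB1, a cancer-testis gene of chromosome X with near-identical copies that the probes could not be shown to separate, read 6.75 and 7.25 in 231BrM-2a, against 11.33 and 11.15 in the parental line and 10.48 and 10.32 in 231BoM-1833 (difference -4.24 ± 0.16, adjusted p = 1.44e-06). RAB38 on chromosome 11, a GTPase of melanosome traffic, read 8.24 and 8.17 against 5.10 and 5.93, with 231BoM-1833 above both at 9.15 and 8.96 (difference -2.69 ± 0.22, adjusted p = 9.38e-05). When no level was set, 9 runs of at least 5 genes were called higher and 7 lower, the longest of 6 genes.

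The 2 arrays of 231BrM-2a were close for most genes, with a median gap of 0.11 and a gap under 0.25 for 15622 of 18417. In 14 genes they differed by at least 1. The heat shock gene HSPA6 had the widest gap, reading 9.56 and 7.29 in 231BrM-2a and 7.17 and 7.81 in MDA-MB-231, and was not called (adjusted p = 0.321). Its difference was -0.20 without 231BrM-2a replicate 1 and 2.07 without replicate 2, where it passed (adjusted p = 0.0141). The iron-binding lipocalin LCN2 read 10.13 and 8.19 against 7.57 and 7.11 in the parental line (adjusted p = 0.0625), and passed without 231BrM-2a replicate 2 (adjusted p = 0.0124). TNFSF18, a TNF-family ligand, read 6.96 and 4.81 against 9.04 and 9.45 and was called lower (-3.36 ± 0.56), with a difference of -4.43 without 231BrM-2a replicate 1 and -2.29 without replicate 2. MMP1, PDK4 and ACTG2, described above, were among the 10 genes with the widest gaps, and the heparan sulphate carrier GPC4 was another, at 6.08 and 7.46 against 5.04 and 4.72, with a difference of 2.58 without 231BrM-2a replicate 1, 1.20 without replicate 2 and no call without MDA-MB-231 replicate 2 (adjusted p = 0.0597). The remaining 3 of the 10, EYS, LGALS9 and the cancer-testis gene MAGEB2, lay at or below 4.86 on both parental arrays. EYS and LGALS9 passed only without 231BrM-2a replicate 1 (adjusted p = 0.0491 and 0.0168), and their differences changed sign without replicate 2 (0.5 and 0.27). MAGEB2 was called higher (4.59 and 4.86 against 6.09 and 7.35), with a difference of 2.63 without 231BrM-2a replicate 1 and 1.37 without replicate 2, and EYS and LGALS9 were not called.

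Genes outside the lists that passed with large differences included MAMDC2, a secreted proteoglycan gene (5.91 and 5.38 against 9.09 and 8.86), and the proton-sensing receptor GPR65 (5.89 and 5.35 against 8.69 and 8.37). The scavenger receptor OLR1 went from 4.75 and 5.36 to 7.64 and 7.90 and the GTPase-activating protein gene ARHGAP28 from 4.97 and 4.96 to 7.79 and 7.87. The granulocyte-macrophage growth factor receptor CSF2RA and the actin-remodelling GMFG, both known from blood cells, were higher, by 2.17 ± 0.12 and 2.15 ± 0.14, beside the leukocyte markers, of which 0 were called higher. The lymphoid phosphatase PTPN22 was lower, from 7.78 and 7.79 to 5.40 and 5.36. Between 231BrM-2a and 231BoM-1833, limma called 4976 of 21214 clusters (23.5%).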

How the data were processed

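Sorted CD24-/CD44+/ESA+ cells from 3 lines were profiled on Affymetrix Human Gene 1.0 ST arrays, 2 per line, per the labels. The authors deposited a log2 value for each transcript cluster on each array, made by RMA in Expression Console, per the series design text and the submitters' processing notes; versions, genome build and annotation are not given in the sources used here. RMA puts the arrays on 1 scale, which hides any shift in RNA content shared by all genes. Scan dates, detection calls and batches were not used here.

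Clusters were named through the platform's gene table. Of 33297 clusters, 21214 had at least 1 symbol, 19460 exactly 1, 1754 several and 12083 none here, and 26098 of 26160 symbol entries matched a RefSeq gene table (GRCh38.p14), with 0 symbols updated. Genes were reported from clusters with exactly 1 symbol (18417 symbols), using the brightest over the 6 arrays where a symbol had several (769 symbols). In 979 clusters the values were identical to those of another cluster on all arrays.

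A mean for each line was fitted over the 6 arrays (lmFit and eBayes of limma 3.58.1, R 4.3.3), with 3 residual and 6.06 prior degrees of freedom, two-sided, with Benjamini-Hochberg adjustment over 21214 clusters and a threshold of 0.05. The 3 lines share this estimate of spread. The script was tested on simulated data. Deviations of same-numbered arrays of MDA-MB-231 and 231BrM-2a correlated at -0.1618, so the replicate numbers were not treated as pairs. Tables and plots were made with pandas 2.3.3 and matplotlib 3.10.9 in Python 3.11.15.

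The comparison, the gene lists and the promoter motifs were chosen with earlier results of these data known. Named genes were chosen from those that met a rule, and not every gene that met it is named. The rule took the 40 called clusters with the largest non-overlapping differences in each direction. It also took each list's core members and up to 6 called members per direction. The 10 genes with the widest gap between the 231BrM-2a arrays and members of the longest runs completed it. Outside the rule, CD24 is named as a sort marker and IFIT5, CXCL10 and RTP4 for their promoters. Motifs were counted on both strands in RefSeq promoters (GRCh38.p14) of 14237 measured genes. Chromosomes and gene order came from the RefSeq gene table.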

Additional observations from a re-analysis of the deposited data

Results flagged for a closer look

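The 2 derivatives lay on opposite sides of MDA-MB-231 for 35 of the 272 named genes, with limma calls against the parental arrays in both lines and in the difference between the lines. Named genes were chosen in part for large differences, and the share over all genes is not given. Calls of 231BoM-1833 against MDA-MB-231 were not rerun under the alternatives. Some lay near the threshold, such as CXCL8 and KDR (limma adjusted p = 0.0461 and 0.0444). Both comparisons use the same parental arrays. The difference between the derivatives, 231BrM-2a minus 231BoM-1833, had a limma adjusted p of at most 4.05e-04. The genes were picked for calls on opposite sides of MDA-MB-231, so a large difference between the derivatives follows from that choice. It is given as a size and adds no separate support. In 10 genes 231BrM-2a was the higher line. Among basement membrane and matrix genes this difference was 3.0 for COL4A1, 2.41 for COL4A2, 2.0 for LAMB1, 1.14 for LAMA5, 3.12 for EFEMP1 and 1.77 for DCN. The other 4 were TENM2 at 4.81, the sodium channel chain SCNN1A at 3.40, the keratin KRT7 at 2.78 and ID1 at 1.55, whose call against MDA-MB-231 was lost without 3 of the 4 arrays, as reported above.

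In 25 genes 231BrM-2a was the lower line. Cytokine and chemokine genes made up 6 of them, with differences of -5.54 for IL24, -5.23 for the decoy receptor IL13RA2, -3.94 for IL1B, -2.52 for CXCL8, -2.44 for CXCL1 and -2.05 for CXCL2. Growth factor and early response genes were SPRY2 at -2.51, DUSP5 at -2.10, IER3 at -2.02 and HBEGF at -1.98. In the plasminogen and protease group, PLAT stood at -2.52, its inhibitor SERPINI1 at -1.35, the urokinase receptor PLAUR at -1.73 and MMP10 at -1.01. Immune genes were HLA-DPA1 at -3.34, TRIM22 at -2.04 and AIM2 at -1.89. The rest were the epithelial factor EHF at -6.10, ESM1 at -4.25, ROBO1 at -3.51, RAB38 at -3.54, DSC2 at -2.55, ITGA2 at -1.79, KDR at -1.57 and the vesicle acidification gene WDR7 at -1.11. For SERPINI1, PLAUR, MMP10, HBEGF, TRIM22 and CXCL2 the call against MDA-MB-231 was lost without at least 1 array, as reported above.

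Of 12083 clusters without a gene symbol, 473 were called once they were added to the comparison of 231BrM-2a with MDA-MB-231. These lie outside the comparison of named genes.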

How the results depend on the processing

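The number of clusters called between 231BrM-2a and MDA-MB-231 depended most on how many arrays were fitted and on the threshold. Leaving out 1 array gave 1764 to 4751 called clusters, 1008 to 2570 higher and 756 to 2181 lower, against 4040, 2217 and 1823; counts at 2-fold or more ran from 367 to 477 higher and from 212 to 233 lower. At an adjusted p under 0.01, 1987 clusters were called, 1172 higher and 815 lower. With clusters without a symbol in the adjustment, 2421 of the 4040 calls were kept (59.9%). Of the 4040, limma kept 3833 after another quantile normalisation, 3906 with each array centred on its median, 3971 with a trended and 4039 with a robust prior. With only the 4 arrays of both lines, 4751 clusters were called. No named gene that was called changed direction under the alternatives run; of the 68 named genes that were not called, the difference of 25 changed sign under at least 1 alternative and 14 passed under at least 1. With only the 4 arrays of both lines these included CD44, NFKBIA, TNFAIP3, TIMP3, ST6GALNAC5 and LCN2 (adjusted p = 0.0152 to 0.0407). Of 204 named genes that were called, 166 kept the call under every alternative at the same threshold and 38 lost it under at least 1.

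The replicate numbers did not pair the arrays. With the replicate block 3535 clusters were called, and with the numbers of 231BrM-2a crossed, an alternative added after seeing the data, 4468.

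With 2 arrays per line the precision is limited by their number. No signal over background was given with the values, so no limit of detection is known. Clusters with several symbols were left out of the gene counts.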
